A study of Mus musculus with 10 samples.

Results

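The proteasome genes of the mouse heart were taken as the 50 genes, of 24537 in the count table, whose symbol started with Psma, Psmb, Psmc, Psmd, Psme, Psmf or Psmg and then a digit. Of these, 49 had at least 10 counts summed over the hearts and were tested, and 42 kept an adjusted p-value after the filter of DESeq2 on low means. RNA was sequenced from heart tissue of 5 control and 5 iSOD2 mice at 6 weeks of age. iSOD2 mice had the genotype Rosa26-rtTA2+/-;TRE-SOD2-shRNA+/-, in which a doxycycline-driven hairpin RNA in the Col1a1 locus targets Sod2, whose product removes superoxide from the mitochondrial matrix. Control mice were Rosa26-rtTA2+/-;TRE-SOD2-shRNA-/- littermates, with the transactivator and no hairpin. In both groups the transactivator was driven from the Rosa26 locus, which is active in nearly all cells, and both groups were exposed to doxycycline through the chow of a C57BL/6J dam before birth and not after it. There were 3 male and 2 female controls, and 2 male and 3 female iSOD2 mice. Litter A gave 2 mice of each genotype and litter B gave 3. The controls of litter A were both male, and its iSOD2 mice were 7, a male, and 8, a female.

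The proteasome degrades proteins that carry ubiquitin chains. Its 20S core is a barrel of stacked rings, in which the outer rings are made of alpha subunits and the inner rings of beta subunits, and only 3 kinds of beta subunit cut peptide bonds. The 19S particle caps the barrel, binds ubiquitin, removes it and unfolds the substrate with a ring of ATPases. Immune cells and cytokine-treated cells can exchange the cutting subunits for the immunoproteasome forms Psmb8, Psmb9 and Psmb10. In heart muscle the proteasome is known for the turnover of sarcomere and damaged proteins.

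The count over genes was lowest in control 3, at 16448091, and highest in iSOD2 5, at 24263086. Sod2 itself lay between 9561 and 11019 normalized counts in controls and between 10117 and 11306 in iSOD2 hearts, with a log2 fold change of 0.03 and an SE of 0.05 (adjusted p = 0.806, DESeq2 Wald test), weeks after doxycycline had ended. These values are RNA, and the study reported higher SOD2 protein in adult iSOD2 hearts. All 8 markers of ventricular cardiomyocytes were present, and their summed level was 4222759 to 5382331 normalized counts in controls and 4135771 to 4781406 in iSOD2 hearts. Of 10 hepatocyte markers all were above zero in log2 fold change and 1 was called, with sums of 1119 to 12594 in controls and 6441 to 24531 in iSOD2 hearts. The part of these transcripts in the results below was not tested. The samples were bulk tissue, so fewer cells of a type and less RNA per cell cannot be told apart.

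The constitutive ring genes, the genes of the 19S particle and the activators had higher levels in the heart than the assembly chaperones and the inhibitor. Levels of different genes were compared as normalized counts per kilobase of exon, averaged over the 10 hearts. Psme4, which encodes the activator PA200, had the highest level of the 50 at 2597 ± 324 (SD, n = 10), and because its transcript of 6393 bases is long it held 24.2% of all counts in proteasome genes. It was followed by Psme1, a subunit of the PA28 activator, at 2299 ± 186, by Psmc3, an ATPase of the 19S base, at 2133 ± 144, and by the catalytic subunit Psmb7 at 2062 ± 109. Levels of the 14 constitutive genes of the 20S rings ran from 478 to 2062 per kilobase with a median of 1315. Levels of the 17 genes of the 19S particle ran from 386 for Psmd14, the deubiquitinase of the lid, to 2133, with a median of 831. The 20S assembly chaperones Psmg1 to Psmg4 had 63.5 to 219 per kilobase, the 19S base chaperones Psmd5, Psmd9 and Psmd10 had 69.3 to 158, and the inhibitor gene Psmf1 had 109. The median over all genes tested was 78.9.

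**Figure D1:**
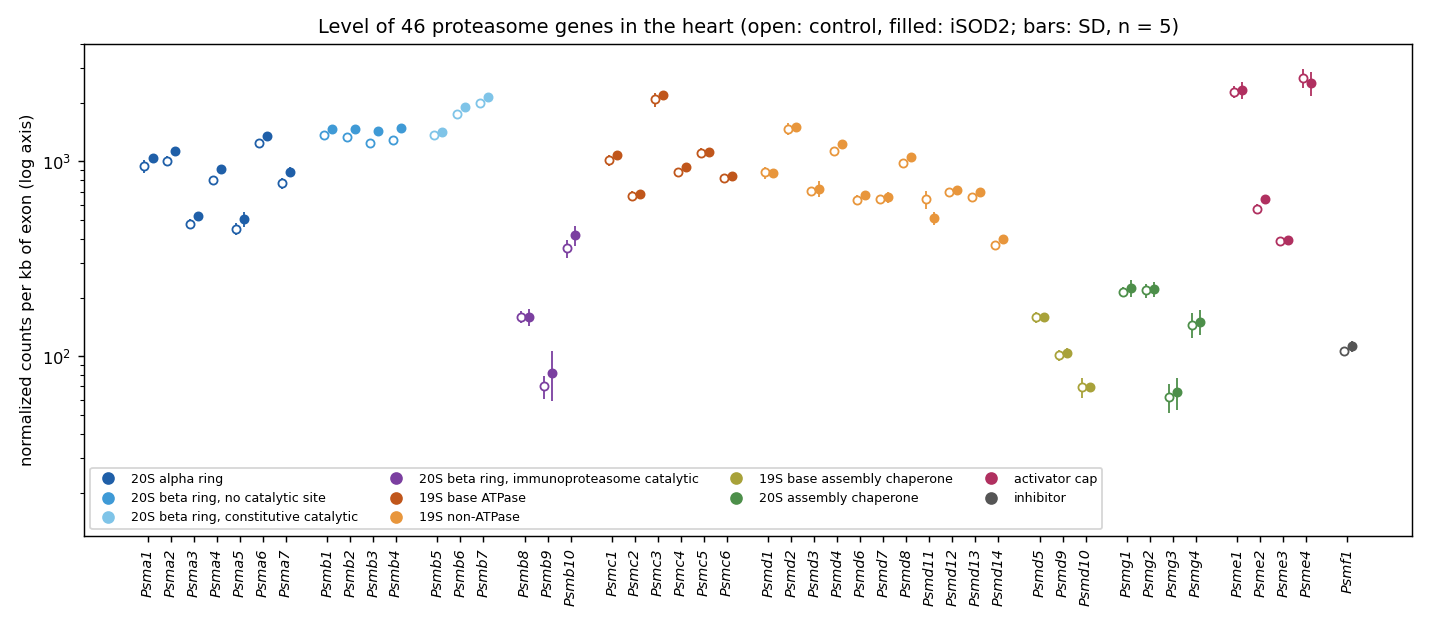
Normalized counts per kilobase of exon (log axis) for 46 proteasome genes grouped by role, with open circles for control and filled circles for iSOD2 hearts (mean and SD, n = 5 each). Psme4, Psme1, Psmc3 and Psmb7 stand highest, the assembly chaperones, Psmb8, Psmb9 and Psmf1 lowest, and Psmd11 is the gene of the 19S particle whose filled circle lies clearly below the open circle.

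Genes of the tissue-restricted forms were near zero. Psmb11, which encodes a catalytic subunit of thymus cortex, was at 0 in control 3, control 4, control 6, iSOD2 5, iSOD2 7 and iSOD2 10 and reached 3.6 normalized counts at most, in control 2, so it did not reach the count minimum. Psma8, which encodes an alpha subunit of the testis, had 5.7 to 15.1 normalized counts, while the germ cell markers summed to 5.6 to 13.3 in controls and Sycp1 was at 0 in every heart. Psmc3ip and Psme2b matched the symbol pattern without belonging to the particle lists. Psmc3ip encodes a meiotic recombination protein and had 34.8 to 52.3 normalized counts. Psme2b is a near copy of Psme2, and its 78.7 to 110 normalized counts are uncertain because reads of both genes may be shared.

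Between genotypes, 1 proteasome gene was called and it was lower in iSOD2 hearts, namely Psmd11. A call needed an adjusted p of at most 0.05 with the DESeq2 Wald test and a log2 fold change beyond 0.25 in size, and over all genes with an adjusted p the percentage called was 2.96, or 1.27 counting higher and 1.7 counting lower genes alone. Without the threshold on fold change 4 proteasome genes passed, Psmb4, Psmb3 and Psma4 higher and Psmd11 lower, where the percentage over all genes was 6.09, with 3.04 higher and 3.05 lower. The log2 fold change was above zero in 44 of the 49 tested genes, against 49.6% of all genes tested, and its median was 0.08 against -0.00 for all genes. Unadjusted p was under 0.05 in 18 of the 49, of which 17 were higher, where the percentages over all genes were 13.2 and 7.29. With edgeR quasi-likelihood no gene of the whole table was called, the lowest adjusted p was 0.0664 over all genes and 0.0826 over proteasome genes (Psmb3), and unadjusted p was under 0.05 for 18 proteasome genes and 15.3% of all genes. The share of a heart's counts that fell in proteasome genes was 0.322% ± 0.00665 for controls and 0.335% ± 0.00914 for iSOD2 (SD, n = 5 hearts each), with ranges of 0.311% to 0.327% and 0.324% to 0.345% that overlapped.

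**Figure D2:**
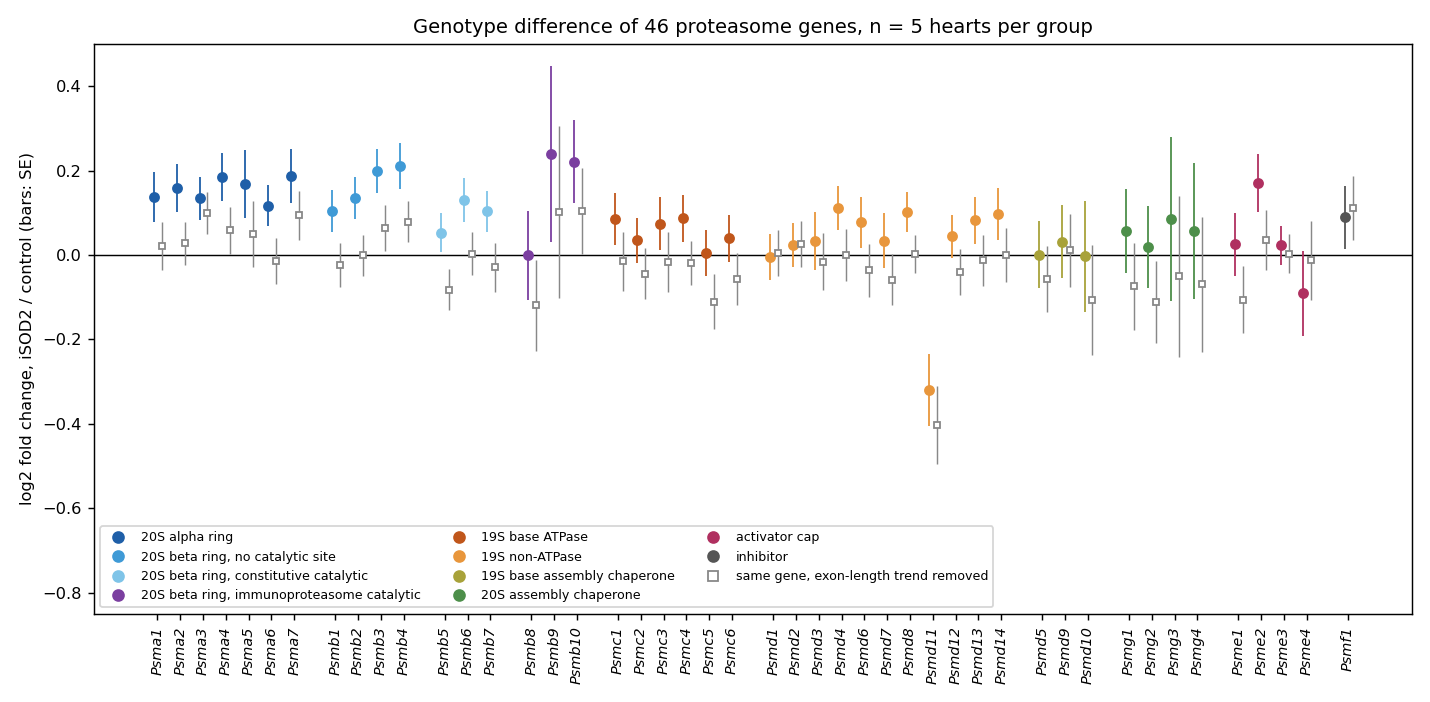
Log2 fold change of iSOD2 over control hearts with its SE for 46 proteasome genes grouped by role (filled circles, n = 5 hearts per group), beside the value after each library's trend with exon length was removed (open grey squares). The constitutive alpha and beta ring genes lie between 0.05 and 0.21, most grey squares lie near zero, and Psmd11 lies at -0.32 and -0.40.

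Psmd11 encodes Rpn6, a lid subunit of the 19S particle that touches the 20S core. Its row (NM_178616) covers chr11:80428615-80472133 on the plus strand of mm10, with 1728 exon bases. Normalized counts were 1202, 1218, 1140, 1005 and 950 in controls 1, 2, 3, 4 and 6 and 893, 1003, 843, 848 and 832 in iSOD2 mice 5, 7, 8, 9 and 10. The groups overlapped through iSOD2 mouse 7, which lay above control 6 and just under control 4, and the other iSOD2 hearts lay under every control. The log2 fold change was -0.32 (SE 0.08, adjusted p = 0.00748, DESeq2 Wald test), which is a change of -19.9% in level. It was the lowest value of the 49 tested genes, and Psme4 was next at -0.09 (adjusted p = 0.665). The direction of Psmd11 was the same in litter A alone (-0.39, adjusted p = 0.06), litter B alone (-0.27, adjusted p = 0.331), males alone (-0.36, adjusted p = 0.0383) and females alone (-0.19, not called). Litter A had no control female, so genotype and sex are partly mixed in its value. Leaving out 1 mouse at a time gave -0.37 to -0.28, and the call was lost only without control 3 (adjusted p = 0.0531). With edgeR quasi-likelihood the adjusted p was 0.0881. Of the 7 genes nearest to it none was called, where 2.96% of all genes were. Zfp207 upstream was at -0.08 (adjusted p = 0.496, DESeq2 Wald test). Cdk5r1, the next gene downstream, was at -0.29 with a mean of 54.6 normalized counts, and C030013C21Rik was at -0.61 with a mean of 15.9. Neither Cdk5r1 nor C030013C21Rik had an adjusted p, so they could not be called. Only Rhbdl3 lay above zero, at 0.03.

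Psmb4, Psmb3 and Psma4 were the proteasome genes that rose by the adjusted p alone, each by less than the fold threshold. Psmb4 and Psmb3 encode beta ring subunits with no cutting site, and Psma4 encodes an alpha ring subunit. Psmb4 had 1229, 1141, 1133, 1264 and 1258 normalized counts in controls 1, 2, 3, 4 and 6 and 1464, 1324, 1369, 1391 and 1437 in iSOD2 mice 5, 7, 8, 9 and 10. Psmb3 had 912, 858, 880, 961 and 885 in controls and 1007, 1063, 1061, 1044 and 993 in iSOD2 hearts, in the same order. Psma4 had 889, 876, 816, 925 and 829 in controls and 1049, 994, 956, 958 and 973 in iSOD2 hearts. In all 3 genes every iSOD2 heart lay above every control, an order that 2.1% of all genes tested had. The 3 genes were picked by the adjusted p from these same counts, so this order is no separate evidence. The log2 fold changes were 0.21 for Psmb4 (SE 0.05, adjusted p = 0.0058), 0.20 for Psmb3 (SE 0.05, adjusted p = 0.00818) and 0.18 for Psma4 (SE 0.06, adjusted p = 0.0275) with the DESeq2 Wald test. Without control 3 the adjusted p became 0.0534, 0.0626 and 0.161. Psma4 also had an adjusted p above 0.05 when control 1, control 2, control 6, iSOD2 5, iSOD2 7 or iSOD2 10 was left out.

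**Figure D3:**
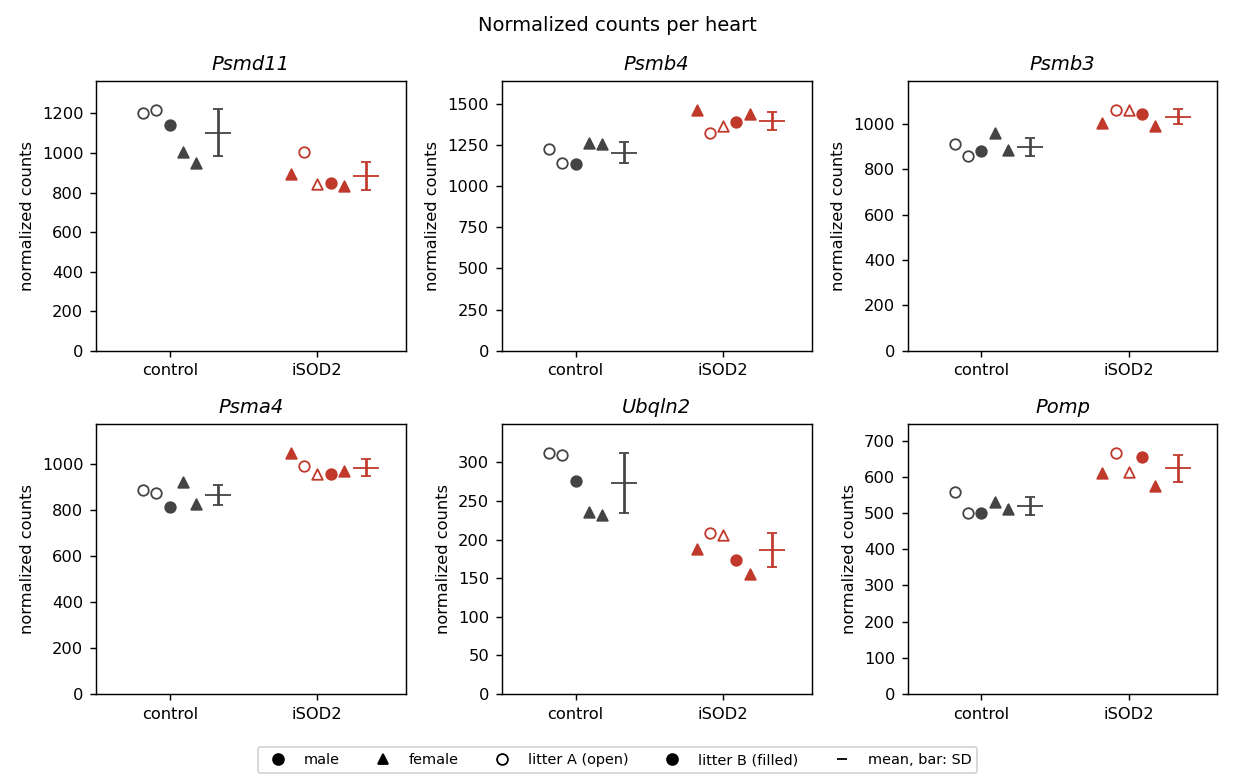
Normalized counts of each heart for 4 proteasome genes and for the pathway genes Ubqln2 and Pomp, with circles for males, triangles for females, open symbols for litter A and filled symbols for litter B, and the mean with SD beside them (n = 5 per group, axes from 0). The control and iSOD2 points of Psmd11 overlap through 1 iSOD2 male of litter A, and those of the other 5 genes do not overlap.

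The 250 bases before the annotated start of these 4 genes were read from RefSeq on GRCm38.p6, the assembly of mm10. The genes are shown because each passed the adjusted p, and only Psmd11 was called. Capitals mark matches on either strand to the GC box (GGGCGG), the CCAAT box (CCAAT), the antioxidant response element (TGACNNNGC), the interferon-stimulated response element (GAAANNGAA) and the gamma-activated site (TTCNNNGAA).
Psmd11: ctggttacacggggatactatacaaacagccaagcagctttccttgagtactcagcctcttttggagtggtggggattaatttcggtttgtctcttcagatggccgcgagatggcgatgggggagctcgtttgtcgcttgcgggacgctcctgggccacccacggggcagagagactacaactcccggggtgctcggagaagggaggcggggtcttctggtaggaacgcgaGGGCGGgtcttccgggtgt
Psmb4: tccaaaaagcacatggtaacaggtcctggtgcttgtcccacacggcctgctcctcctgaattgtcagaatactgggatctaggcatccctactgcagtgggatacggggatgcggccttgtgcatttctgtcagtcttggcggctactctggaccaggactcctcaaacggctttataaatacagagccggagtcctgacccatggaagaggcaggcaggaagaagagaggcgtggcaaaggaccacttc
Psmb3: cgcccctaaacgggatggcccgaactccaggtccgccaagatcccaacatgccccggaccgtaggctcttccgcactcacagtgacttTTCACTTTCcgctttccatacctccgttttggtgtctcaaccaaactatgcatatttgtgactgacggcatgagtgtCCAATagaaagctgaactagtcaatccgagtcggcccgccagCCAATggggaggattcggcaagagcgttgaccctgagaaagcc
Psma4: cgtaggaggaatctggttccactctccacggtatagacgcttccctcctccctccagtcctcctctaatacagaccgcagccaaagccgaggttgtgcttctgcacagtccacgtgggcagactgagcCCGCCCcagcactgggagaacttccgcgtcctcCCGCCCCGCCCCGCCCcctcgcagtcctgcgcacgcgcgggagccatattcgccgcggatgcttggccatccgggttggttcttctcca
These windows lie at chr11:80428365-80428614 on the plus strand for Psmd11, chr3:94886959-94887208 on the minus strand for Psmb4, chr11:97703184-97703433 on the plus strand for Psmb3 and chr9:54950609-54950858 on the plus strand for Psma4. The Psmd11 window held 1 GC box, 19 to 14 bases before the start. The Psmb4 window held none of the 5 motifs. The Psmb3 window held 2 CCAAT boxes and 1 match to the interferon element in reverse, TTCACTTTC, and the Psma4 window held 4 GC boxes in reverse, of which 3 overlap at their ends. RefSeq windows were found for 42 of the 50 genes, with 45 windows in all. A GC box was in 51.1% of the proteasome windows and 32.7% of the 32851 windows of all genes, a CCAAT box in 33.3% and 33.8%, the antioxidant element in 11.1% and 10.2%, the interferon element in 6.67% and 7.13%, and the gamma-activated site in 4.44% and 7.02%. The antioxidant element is bound by NFE2L1 and NFE2L2, factors known to raise proteasome genes. It was found for Psmb5 (TGACGTCGC), Psmb6 (TGACGGAGC), Psmc6, Psmd12 and Psmd9. A match does not show binding, and the part of these factors in the genotype values was not tested.

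All 14 genes of the constitutive 20S rings had a log2 fold change above zero in iSOD2 hearts, with a median of 0.14 and a range of 0.05 to 0.21, and unadjusted p was under 0.05 in 13 of them. In 6 proteasome genes all iSOD2 hearts lay above all controls, an order that 2.1% of all genes tested had. These were the ring genes Psma3, Psma4, Psma6, Psmb2, Psmb3 and Psmb4. No proteasome gene had the opposite order, which 1.67% of all genes had. Summed over the 14 genes, normalized counts were 16609 ± 507 for controls and 18305 ± 241 for iSOD2 (SD, n = 5 hearts each), and the ranges of 16063 to 17306 and 18006 to 18576 did not overlap. Within the alpha ring, Psma7 had the highest value at 0.19 (adjusted p = 0.0565) and Psma6 the lowest at 0.12 (adjusted p = 0.14). Among the beta genes without a cutting site, Psmb4 was highest and Psmb1 lowest at 0.10 (adjusted p = 0.21). All 14 stayed above zero whichever mouse was left out, and the number with unadjusted p under 0.05 then ran from 8, without control 3, to 12.

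The difference of the rings went with exon length. Ring transcripts are short, with a median exon length of 1008 bases against 1548 for the 19S particle and 2646 for all genes tested. Log2 fold change and length had a Spearman's rho of -0.46 over the 49 proteasome genes and of -0.47 over the 12151 genes whose mean normalized count was 50 or more. Genes share the libraries and are not independent replicates. The slope of log2 level on log2 exon length ran from 0.006 to 0.053 in control libraries and from -0.051 to -0.018 in iSOD2 libraries. The trend thus differed between genotypes, and removing it also takes out any genotype difference that goes with length. After each library's smooth trend with length was removed, the median of the 14 ring genes was 0.02, with 9 above and 5 below zero, and none had an adjusted p of 0.05 or less. Psmb4 then stood at 0.08 (adjusted p = 0.567), Psmb3 at 0.06 (adjusted p = 0.73) and Psma4 at 0.06 (adjusted p = 0.78). Over all 49 genes the median became -0.01, with 20 above and 29 below zero. Psmd11 did not shrink: it stood at -0.40 (adjusted p = 0.00306) and remained called, while the percentage called over all genes was 1.38.

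**Figure D4:**
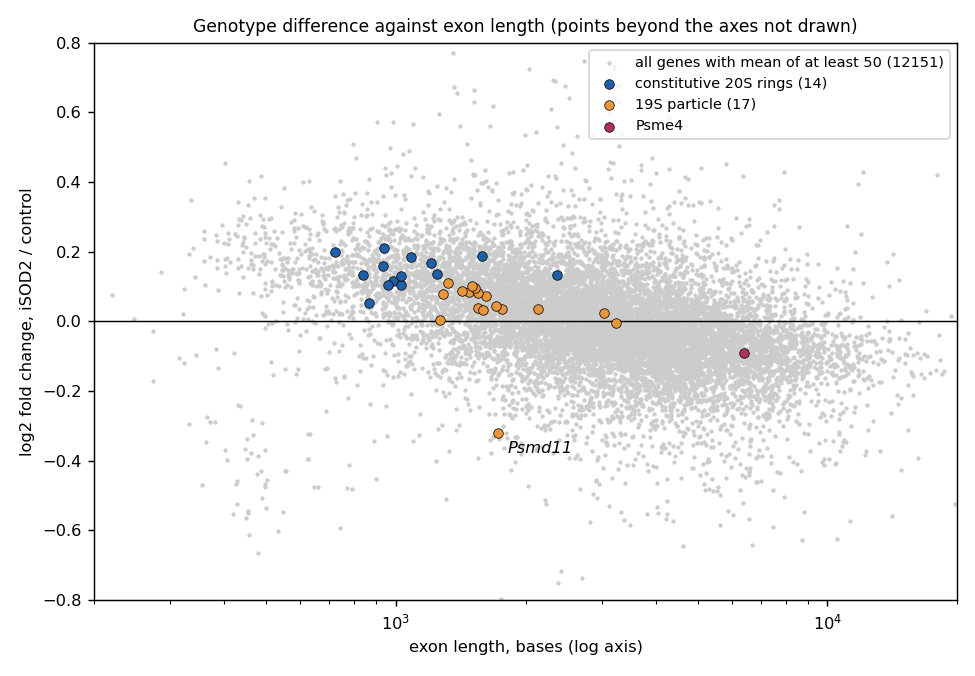
Log2 fold change of iSOD2 over control against exon length (log axis) for 12022 of the 12151 genes whose mean normalized count was 50 or more (grey, the other 129 lie beyond the axes), with the 14 constitutive ring genes in blue, the 17 genes of the 19S particle in orange and Psme4 in red. Most blue points lie at 723 to 1243 bases and above zero, Psme4 lies at 6393 bases below zero, and Psmd11 lies below the other orange points.

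Among the cutting subunits of the constitutive core, Psmb6 (caspase-like activity) and Psmb7 (trypsin-like activity) had log2 fold changes of 0.13 (adjusted p = 0.107) and 0.10 (adjusted p = 0.195), and of 0.003 (adjusted p = 0.992) and -0.03 (adjusted p = 0.938) with the length trend removed. Psmb5, which encodes the chymotrypsin-like subunit that proteasome inhibitor drugs bind, was the ring gene with the smallest difference, 0.05 (SE 0.05, adjusted p = 0.563). Its normalized counts were 1163, 1207, 1207, 1154 and 1154 in controls and 1219, 1177, 1222, 1208 and 1272 in iSOD2 hearts, so the groups overlapped.

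The immunoproteasome subunits did not pass the test in either direction. Psmb8 had 176 to 208 normalized counts in controls and 177 to 227 in iSOD2 hearts, and its log2 fold change was -0.00 with an SE of 0.11 (adjusted p = 0.999). Psmb10 had 387 to 492 in controls and 450 to 619 in iSOD2 hearts, and its log2 fold change was 0.22 with an SE of 0.10 (adjusted p = 0.173), or 0.10 (adjusted p = 0.795) with the length trend removed. Psmb9 had 42.6 to 62.7 and 46.6 to 87.7, and its log2 fold change was 0.24 with an SE of 0.21 and no adjusted p. Per kilobase, Psmb8 stood at 11.7% ± 0.949 of the level of its constitutive partner Psmb5 for controls and at 11.3% ± 1.23 for iSOD2 (SD, n = 5 hearts each, two-sided exact permutation p = 0.532). Psmb9 stood at 4.03% ± 0.625 of Psmb6 in controls and 4.34% ± 1.30 in iSOD2 hearts (exact permutation p = 0.794), and Psmb10 at 18.0% ± 1.84 and 19.5% ± 2.74 of Psmb7 (exact permutation p = 0.365). Adjusted over these 3 ratios each exact permutation p was 0.794, and the smallest p that 5 against 5 hearts allow is 0.00794. The permutation tests took no account of sex, and Psmb9 stood at 0.45 for females against males (SE 0.19, adjusted p = 0.52, DESeq2 Wald test). The 9 leukocyte markers summed to 5124 to 6069 normalized counts in controls and 4351 to 5696 in iSOD2 hearts (two-sided exact permutation p = 0.0952), 2 of 9 were above zero in log2 fold change and none was called. The part of leukocytes in these ratios was not tested.

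Values in the 19S particle were nearer zero. Of its 17 genes 15 were above zero, the median log2 fold change was 0.04 and 3 had an unadjusted p under 0.05, of which Psmd11 was lower and Psmd4 and Psmd8 were higher. Summed normalized counts without regard to length were 27436 ± 1244 for controls and 28169 ± 731 for iSOD2 (SD, n = 5 hearts each), with ranges that overlapped. Among the 6 ATPases of the base, which unfold the substrate, Psmc4 was highest at 0.09 (adjusted p = 0.396) and Psmc5 lowest at 0.01 (adjusted p = 0.974). Among the other subunits, Psmd4, the ubiquitin receptor Rpn10, was highest at 0.11 (adjusted p = 0.201), and Psmd11 was lowest. The other lid and base subunits lay between -0.01 for Psmd1 and 0.10 for Psmd8. After removal of the length trend the median of the 17 was -0.02, with 3 above and 14 below zero.

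The assembly chaperones and the inhibitor showed no difference that passed a test. The 4 genes Psmg1 to Psmg4, whose products assemble the alpha ring, were at 0.02 to 0.08 and the 3 base chaperones at -0.00 to 0.03, with unadjusted p above 0.05 for all 7. Psmf1, which encodes the inhibitor PI31, was at 0.09 (adjusted p = 0.54). Among the activators, Psme2 of PA28 was at 0.17 (SE 0.07, adjusted p = 0.115) with 496, 551, 477, 486 and 502 normalized counts in controls and 557, 544, 537, 614 and 571 in iSOD2 hearts, which overlapped through control 2. Its partner Psme1 was at 0.03 (adjusted p = 0.888), Psme3 of the nuclear PA28 ring at 0.02 (adjusted p = 0.828) and Psme4 at -0.09 (SE 0.10, adjusted p = 0.665).

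Among 38 other genes of the ubiquitin-proteasome pathway, 1 was called higher and 1 lower, beside the 2.96% of all genes. The higher gene was Pomp, which encodes the chaperone that the beta rings need for maturation. It had 559, 500, 501, 529 and 511 normalized counts in controls and 610, 666, 613, 655 and 574 in iSOD2 hearts, and the groups did not overlap. Its log2 fold change was 0.26 (SE 0.07, adjusted p = 0.00677), the call was lost without control 2, control 3, iSOD2 7 or iSOD2 9 (adjusted p at most 0.0526), and with the length trend removed it stood at 0.12 (adjusted p = 0.544), its transcript having 726 exon bases. The lower gene was Ubqln2, whose product carries ubiquitylated proteins to the proteasome. It had 312, 310, 276, 236 and 232 in controls and 188, 209, 206, 174 and 156 in iSOD2 hearts, with every iSOD2 heart under every control. Its log2 fold change was -0.55 (SE 0.12, adjusted p = 0.000909) and -0.53 with the length trend removed (adjusted p = 0.00293). With 1 mouse left out its adjusted p was 0.000265 to 0.0112, and there was none without control 1. With edgeR quasi-likelihood the adjusted p of Ubqln2 was 0.0664, so it was not called. The gene lies on the X chromosome, and its genotype value was -0.65 in males alone and -0.35 in females alone. Litter B stood at -0.30 against litter A (adjusted p = 0.0561, DESeq2 Wald test).

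Of the 5 listed proteasome parts and assembly factors outside the symbol pattern, 4 were above zero. Besides Pomp, Shfm1, which encodes the small lid subunit Sem1, passed the adjusted p (0.0406) with a log2 fold change of 0.24, under the fold threshold, and stood at 0.12 (adjusted p = 0.587) with the length trend removed. With 1 mouse left out its adjusted p was 0.00593 without control 4, 0.0316 without control 6 and 0.071 to 0.188 without any other mouse. Its value was 0.38 in males alone and 0.06 in females alone (interaction unadjusted p = 0.0237, with no gene called after adjustment). Adrm1, the ubiquitin receptor Rpn13, was at 0.17 (adjusted p = 0.124). These names and those of Psma4, Psmb3, Psmd2, Psmd8, Nfe2l1 and Nfe2l2 were chosen after their values were seen. Of the 5 ubiquitin and ubiquitin-activating genes, Rps27a, which encodes ubiquitin fused to a ribosomal protein, rose by 0.19 (adjusted p = 0.023) and stood at 0.06 with the length trend removed (adjusted p = 0.752). With 1 mouse left out its adjusted p ran from 0.000338, without control 4, to 0.144, without control 3, and was under 0.05 otherwise only without iSOD2 7 or iSOD2 8. Of the 4 muscle ubiquitin ligases, Trim55 (MuRF2) had a log2 fold change of -0.25 (adjusted p = 0.0489), just short of the fold threshold and so not called, and was called at -0.33 (adjusted p = 0.0213) with the length trend removed. It was also called without control 6, iSOD2 5 or iSOD2 9, and its adjusted p ran from 0.0117 to 0.17 with 1 mouse left out.

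Transcripts of the regulators of proteasome transcription showed no difference that passed the test. Protein was not measured in these data, and the study reported higher NRF2 protein, the product of Nfe2l2, in iSOD2 hearts. It also reported an enrichment of NRF2 target genes. Nfe2l1, the factor that raises proteasome genes when degradation is blocked, was at -0.05 (adjusted p = 0.725) and Nfe2l2, the oxidant-responsive factor, at 0.04 (adjusted p = 0.803). Nlrc5, a regulator of MHC class I genes, was at 0.18 with no adjusted p. Among the ligases and deubiquitinases that bind the proteasome, Ube3c had the largest value, -0.13 (adjusted p = 0.0715). Among the 5 genes that load peptides onto MHC class I, B2m, the light chain, had the largest value, 0.30 (adjusted p = 0.0756), with 1679 to 2117 normalized counts in controls and 1917 to 2946 in iSOD2 hearts.

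The study compared males and females, and 1 proteasome gene was called for sex with genotype in the model, where 0.483% of all genes were called. Psme4 was lower in females, by -0.27 on the log2 scale (SE 0.07, adjusted p = 0.0275, DESeq2 Wald test). Its normalized counts were 17417, 20069 and 17212 in control males, 17490 and 18846 in iSOD2 males, 16157 and 14760 in control females and 14648, 13118 and 16320 in iSOD2 females. Every female lay under every male, an order that 0.959% of all genes tested had. Psme4 was picked by its call for sex from these same counts, so this order is no separate evidence. The call was lost with the length trend removed, with edgeR, and when control 2, control 6, iSOD2 5, iSOD2 7, iSOD2 8 or iSOD2 9 was left out, and the adjusted p ran from 0.00505 to 0.148 over the 10 fits with 1 mouse left out. Psmd11 was at -0.20 for females against males (SE 0.07, adjusted p = 0.264), and the 2 control females were the lowest controls. With sex as a covariate Psmd11 remained called for genotype, where 2.02% of all genes were called. For the genotype-by-sex interaction DESeq2 and edgeR both called 0 genes of the whole table, and 0 of the 49 proteasome genes had an unadjusted p under 0.05, where 1.18% of all genes did in DESeq2 and 2.75% in edgeR.

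**Figure D5:**
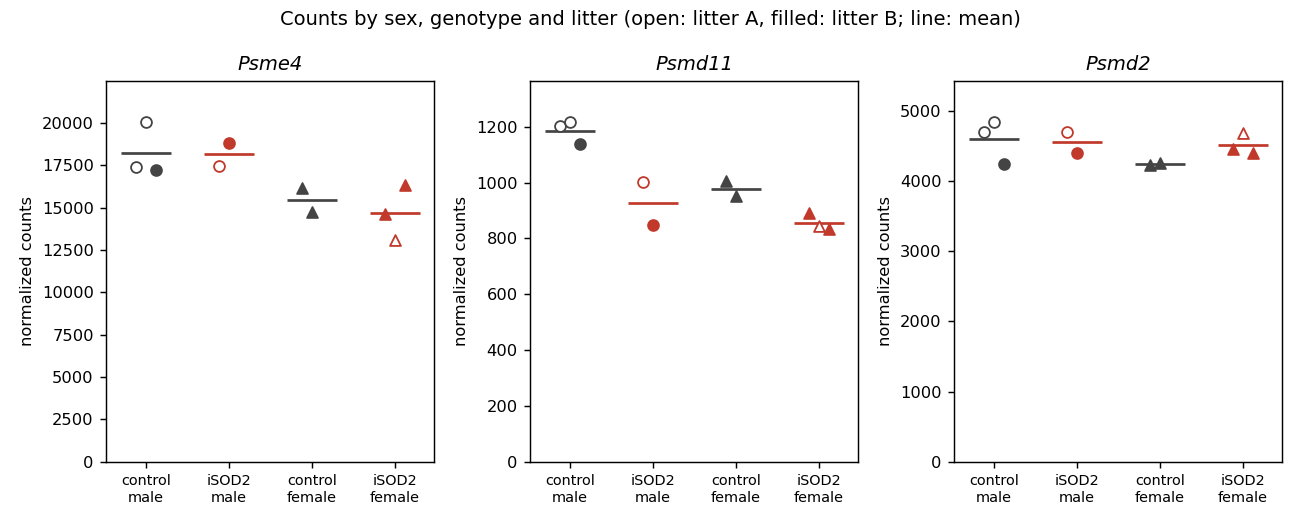
Normalized counts of Psme4, Psmd11 and Psmd2 by genotype and sex, with circles for males, triangles for females, open symbols for litter A, filled symbols for litter B and a line at each mean (2 or 3 hearts per column, axes from 0). All Psme4 females (13118 to 16320) lie under all males (17212 to 20069), and the open Psmd2 symbols lie above the filled ones.

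Between litters 0 proteasome genes were called with DESeq2 or with edgeR, where DESeq2 called 3.5% of all genes, and 6 of the 49 had an unadjusted p under 0.05 with either tool, where 13.0% of all genes did in DESeq2 and 16.1% in edgeR. Psmd2, the 19S base subunit Rpn1 that docks ubiquitin shuttles, passed the adjusted p without the fold threshold, as did 4.31% of all genes. It had 4680 to 4846 normalized counts in the 4 hearts of litter A and 4227 to 4458 in the 6 hearts of litter B. Its log2 fold change was -0.13 for B against A (SE 0.04, adjusted p = 0.0237, DESeq2 Wald test). Psmd2 was picked by this adjusted p from the same counts, so the gap between the litters is no separate evidence. Its genotype difference was 0.02 (adjusted p = 0.853). The median of the 14 ring genes between genotypes was 0.13 in litter A alone and 0.15 in litter B alone, and that of the 17 genes of the 19S particle was 0.01 and 0.09.

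Of the 50 genes, 10 lie on chromosome 11, which also holds the Col1a1 locus (chr11:94936224-94953042) with the hairpin cassette. Psmb3 is the nearest, at 2.75 Mb, and Psmd11 lies 14.5 Mb away. Psmd3, at 3.73 Mb, had a log2 fold change of 0.03 (adjusted p = 0.829) and Psme3, at 6.36 Mb, one of 0.02 (adjusted p = 0.828). The part of linkage to the cassette in the values of Psmb3 and Psmd11 was not tested. No strand option is stated for the counting, and exons of 12 of the 50 genes share bases with exons of a gene on the opposite strand, from 14 bases for Psme1 to 1849 for Psmd9, among them Psmb9 with Tap1 (212 bases) and Psma4 with AY074887 (114 bases). Exons of Psmd11, Psmb3 and Psmb4 share none in the GENCODE annotation of the same build.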

How the data were processed

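RNA from heart tissue was depleted of ribosomal RNA and sequenced. The authors aligned reads to mm10 with STAR and summed them over exons with HOMER, with 1 transcript per gene and no strand option stated. They trimmed reads with Trim Galore where an experiment held adaptor sequences, and whether this one did is not stated. What they deposited is a table of estimated counts (multiples of 0.5) with no normalization, together with another unit, the exon length of each gene in bases. Groups, sex and litter came from the labels. Each library is 1 mouse, so p-values measure the spread between mice.

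Counts were rounded and tested over the whole table with the DESeq2 1.42.0 Wald test in R 4.3.3 (at least 10 counts summed). The tool, count filter and thresholds followed the study's methods, which state no covariate. The genotype model had no covariate, and the models for sex and litter had genotype as covariate. Normalized counts were divided by median-of-ratios size factors. Alternatives were edgeR 4.0.16, other filters, scaling and covariates, each litter and sex alone, each mouse left out, and length trends removed from each library by a natural spline (5 degrees of freedom). The models were tested on simulated data. Members and gene lists were chosen with earlier results of these data known. Genes named were the called ones, the catalytic subunits, the highest and lowest of each role, those under the filter or outside the roles, and the called or largest of each pathway list.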

Additional observations from a re-analysis of the deposited data

Results flagged for a closer look

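In 2 of 58 groups of 5 hearts examined over 29 named genes, 1 heart lay far from the other 4, and chance gives 2.9 such groups. Psmb9 had 42.6 normalized counts in control 3, where the other controls had 57.9 to 62.7. Rps27a had 1597 normalized counts in control 4, where the other controls had 1349 to 1413.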

How the results depend on the processing

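Individual control and iSOD2 mice could not be paired because they share no replicate number, but both genotypes came from each litter. With litter, which both genotypes share, as a covariate Psmd11 stayed called at -0.32 (adjusted p = 0.00102) among 326 calls over all genes, and with sex and litter at -0.28 (adjusted p = 0.00273) among 222, while the adjusted p was 0.00505 and 0.0264 for Psmb4, 0.0135 and 0.0518 for Psmb3, and 0.0383 and 0.109 for Psma4. The genotype call of 1 proteasome gene became 0 with edgeR, in females alone, in litter A alone, in litter B alone and without control 3, and 4 with no fold threshold, and ran from 0 to 1 with 1 mouse left out. The 281 calls over all genes became 0 with edgeR, 93 in females, 151 in males, 125 in litter A, 66 in litter B, 131 with the length trend removed (36 higher, 95 lower) and 577 with no fold threshold, and ran from 166 to 490 with 1 mouse left out (181 without control 1, 166 without control 2, 186 without control 3 and 490 without control 4). For sex, the proteasome calls were 0 with edgeR and with the length trend removed, and 0 to 1 with 1 mouse left out, and the 79 calls over all genes were 29 with edgeR and 41 to 147 with 1 mouse left out. For litter, 548 calls became 365 with edgeR and 298 to 705 with 1 mouse left out. The 14 ring genes had a median of 0.025 with the length trend removed, the 20S chaperones -0.072 and the 19S chaperones -0.058 (-0.0044 to 0.054 with 1 mouse left out).

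Small genotype values changed sign in many genes, most of them under 0.15 in size. With the length trend removed they were -0.013 for Psma6, -0.024 for Psmb1, -0.0010 for Psmb2, -0.082 for Psmb5, -0.029 for Psmb7, -0.12 for Psmc3ip, -0.018 for Psmc4, -0.11 for Psmc5, -0.016 for Psmd3, -0.00057 for Psmd4 and 0.0061 for Nfe2l1. In males alone they were -0.000044 for Psmb5, -0.14 for Psmb9, -0.014 for Psmd2 and -0.26 for the log2 ratio of Psmb9 to Psmb6. In litter A alone they were 0.011 for Psmb8, -0.26 for Psmc3ip, -0.047 for Psmc5, -0.023 for Psmd2, -0.11 for Nfe2l2, -0.098 for Nlrc5 and -0.075 for the ratio of Psmb9 to Psmb6, and in litter B alone 0.048 for Psme4. Psmb8 was 0.036 in females and 0.00021 with litter as covariate, and the litter difference of Psme4 was 0.077 with genotype and sex as covariates. With 1 mouse left out, Psmb8 ran from -0.064 to 0.030, Psmc3ip from -0.062 to 0.085, Psmc5 from -0.014 to 0.033, the litter difference of Psme4 from -0.17 to 0.026 and the ratio of Psmb9 to Psmb6 from -0.063 to 0.19. The cause was not tested, other than that fits on 1 litter or sex have fewer mice.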
